A study of Mus musculus with 9 samples.

Results

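The genes of mouse chromosome 14 were described here in the order in which they lie on the chromosome. The 462 members were the gene regions of the deposited count table on chromosome 14 that reached a mean of at least 1 CPM (the count scaled to its library's total) over the 9 libraries, out of 2562 gene regions of that chromosome. A further 2095 gene regions stayed below 1 CPM, 1375 of them with 0 counts in every library, and 5 genes were left out by the rule. The whole series held 14067 gene regions at that level, 13073 of them on the other autosomes. The chromosome was chosen by its lowered level in the PDGF-BB cells against p53n OPC, so every value of that comparison is a description of what chose the members and carries no test. The members nearest to the limit were Gm3739, Gm48239 and Gm48985 at 1.02 CPM each and Tmem253 at 1.03 CPM, and just outside it lay Itgbl1 at 0.994 CPM, Phyhip at 0.989 CPM, Psme2 at 0.985 CPM and Timm23 at 0.948 CPM. Of the members, 459 had a gene symbol and 402 were annotated as protein coding. All 462 passed the filter on low counts.

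The libraries came from primary oligodendrocyte progenitor cells of the mouse, the dividing precursors of myelin-forming cells, and every group, the controls included, is labelled Trp53 -/-. The 3 groups of 3 libraries were p53n OPC, labelled as the control; BB-p53n DMSO, cells that the study describes as overexpressing PDGF-BB and that received the vehicle DMSO; and BB-p53n EZH2i, the PDGF-BB cells after 48 hours with 5 µM tazemetostat, an inhibitor of the histone methyltransferase EZH2. All cells grew in SATO medium with 10 ng/mL PDGF-AA, and polyadenylated RNA was sequenced. The vehicle is named for PDGF-BB cells only, so PDGF-BB, the vehicle and the line itself cannot be told apart in a comparison with p53n OPC, and whether each library is a culture of its own is not stated. P-values therefore reflect variation among the libraries sequenced, some or all of it possibly technical.

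A chromosome holds genes of unrelated function side by side, and neighbours can share chromatin state, base composition and copy number. PDGF-BB is a growth factor that binds the PDGF receptors through which oligodendrocyte progenitors are kept dividing. EZH2 is the catalytic subunit of Polycomb repressive complex 2, which methylates lysine 27 of histone H3, a mark of silenced genes that is laid down most readily over CpG-rich promoters.

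For that reason the promoter windows of 4 members with contrasting levels and CpG content are shown, from 250 bases before to 50 bases after the annotated start. They were taken from RefSeq on GRCm38.p6, read 5′ to 3′ on the minus strand of each gene, with every CG pair in capitals. They are Ednrb, chr14:103843652-103843951, with the largest difference in mean CPM between BB-p53n DMSO and p53n OPC; Gng2, chr14:19976644-19976943, also lower; and Kcnk5, chr14:20181733-20182032, and Haus4, chr14:54554312-54554611, both higher.
Ednrb: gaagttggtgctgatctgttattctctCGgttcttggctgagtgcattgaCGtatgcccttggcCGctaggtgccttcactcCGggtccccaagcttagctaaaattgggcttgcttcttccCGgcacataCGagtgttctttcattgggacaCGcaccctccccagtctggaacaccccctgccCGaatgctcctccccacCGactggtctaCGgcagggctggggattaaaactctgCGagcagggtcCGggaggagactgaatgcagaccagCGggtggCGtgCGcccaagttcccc
Gng2: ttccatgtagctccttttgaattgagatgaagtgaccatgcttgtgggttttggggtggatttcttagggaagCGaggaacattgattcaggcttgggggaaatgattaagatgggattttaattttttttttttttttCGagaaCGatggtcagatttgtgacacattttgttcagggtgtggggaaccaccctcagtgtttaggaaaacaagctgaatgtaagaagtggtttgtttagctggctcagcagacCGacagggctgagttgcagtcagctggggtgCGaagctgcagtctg
Kcnk5: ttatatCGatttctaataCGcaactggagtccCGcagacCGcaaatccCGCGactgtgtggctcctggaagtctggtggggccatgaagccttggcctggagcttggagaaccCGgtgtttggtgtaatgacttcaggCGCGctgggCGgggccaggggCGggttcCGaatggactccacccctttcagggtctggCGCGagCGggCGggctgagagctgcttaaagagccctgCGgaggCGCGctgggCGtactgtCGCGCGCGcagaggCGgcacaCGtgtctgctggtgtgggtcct
Haus4: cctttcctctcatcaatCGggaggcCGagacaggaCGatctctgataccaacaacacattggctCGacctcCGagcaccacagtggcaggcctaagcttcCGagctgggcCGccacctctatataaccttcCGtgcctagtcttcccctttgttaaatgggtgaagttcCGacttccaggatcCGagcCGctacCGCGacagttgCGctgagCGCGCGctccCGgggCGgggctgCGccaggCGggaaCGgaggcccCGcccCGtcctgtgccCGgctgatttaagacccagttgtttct
The Ednrb window held 15 CG pairs and the Gng2 window 5, while Kcnk5 and Haus4 held 26 and 25. The motif searched was CG, which reads the same on both strands. Of the members, 318 had a promoter in the RefSeq table, and 249 of them had exactly 1. These 249 windows held a median of 21 CG pairs, and 75.9% held at least 15. For the 7393 other autosomal genes at 1 CPM or more with exactly 1 promoter the median was 22 and the share 76.8%, so the members were close to other expressed genes. Over all 32851 promoters of the table, silent genes and alternative starts included, the share was 34.6%.

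The manipulated genes were read first. Pdgfb received 0, 1 and 0 counts in p53n OPC, 4, 8 and 4 in BB-p53n DMSO and 6, 4 and 3 in BB-p53n EZH2i, so the counted gene stayed at 8 counts or fewer and does not itself show the overexpression; the sequence of the construct is not given in the sources used here. Trp53 was at 6.97 to 8.58 CPM in p53n OPC and at 11.8 to 14.9 CPM in the PDGF-BB libraries, and since the deleted part is not stated, reads of the gene do not check the genotype. Ezh2 was at 115 to 120, 166 to 172 and 103 to 117 CPM in the 3 groups in the order above.

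Total counts ranged from 19471768 to 34557109 per library. A count of 3, the floor used for genes near 0, was worth 0.087 to 0.154 CPM. All 10 markers of oligodendrocyte progenitors were at 1 CPM or more in every library, with a summed level of 9369 to 9727 CPM in p53n OPC, 6679 to 6801 CPM in BB-p53n DMSO and 4693 to 5222 CPM in BB-p53n EZH2i. Single markers went both ways: Gpr17 was at 1897 to 2027, 117 to 138 and 49.3 to 62.0 CPM, while Sox10, a defining factor of the lineage, was at 1.93 to 2.52 CPM in p53n OPC, at 282 to 310 CPM in BB-p53n DMSO and at 438 to 456 CPM in BB-p53n EZH2i. Of 8 microglial markers, 1 was at 0 in all libraries and their sum stayed between 1.46 and 2.81 CPM, while the 7 astrocyte markers summed to 858 to 1035, 412 to 445 and 306 to 318 CPM in the 3 groups in that order. The 7 markers of differentiated oligodendrocytes summed to 687 to 749, 158 to 171 and 271 to 283 CPM, and the 7 neuronal markers to 1639 to 1694, 1424 to 1559 and 493 to 630 CPM. Mitochondrial genes took 4.46% to 5.76%, 2.44% to 2.62% and 1.34% to 1.54% of the counts. The 3 groups differed in sex-linked genes. Xist was at 2860 to 3257 CPM in p53n OPC, 45.1 to 64.4 CPM in BB-p53n DMSO and 2.72 to 16.8 CPM in BB-p53n EZH2i. Y-linked Ddx3y was at 0.215 to 0.751, 42.05 to 52.6 and 5.65 to 13.3 CPM in that order. The part of these differences in the chromosome 14 levels was not tested, and in bulk RNA fewer cells of a type and less RNA per cell cannot be told apart.

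Chromosome 14 as a whole stood lower in the PDGF-BB libraries. The level of the chromosome in a library was taken as the median, over members, of the log2 CPM minus that gene's mean over all 9 libraries, less the same median over the other autosomal genes. It was 0.43, 0.41 and 0.41 in the p53n OPC libraries, -0.10, -0.14 and -0.10 in BB-p53n DMSO, and -0.29, -0.36 and -0.34 in BB-p53n EZH2i. The 3 groups did not overlap, with an SD within a group of 0.016, 0.025 and 0.036 (n = 3 each). These SDs may be partly or wholly technical, and the chromosome was chosen by its lowered level in the PDGF-BB cells. Members received 3.05% ± 0.059 (SD, n = 3) of the autosomal counts in p53n OPC. The share was 2.00% ± 0.021 (SD, n = 3) with PDGF-BB and vehicle, and 1.90% ± 0.030 (SD, n = 3) with PDGF-BB and the inhibitor.

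The order of the 2 PDGF-BB groups depended on base composition. When each library's trend of log2 level on transcript GC content and exon length was removed (called GC-corrected from here on), the levels were 0.28, 0.30 and 0.33 in p53n OPC, -0.18, -0.20 and -0.19 in BB-p53n DMSO, and -0.15, -0.13 and -0.15 in BB-p53n EZH2i. The PDGF-BB libraries stayed below the p53n OPC ones, and the inhibitor-treated libraries then lay above the vehicle-treated ones.

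**Figure D1:**
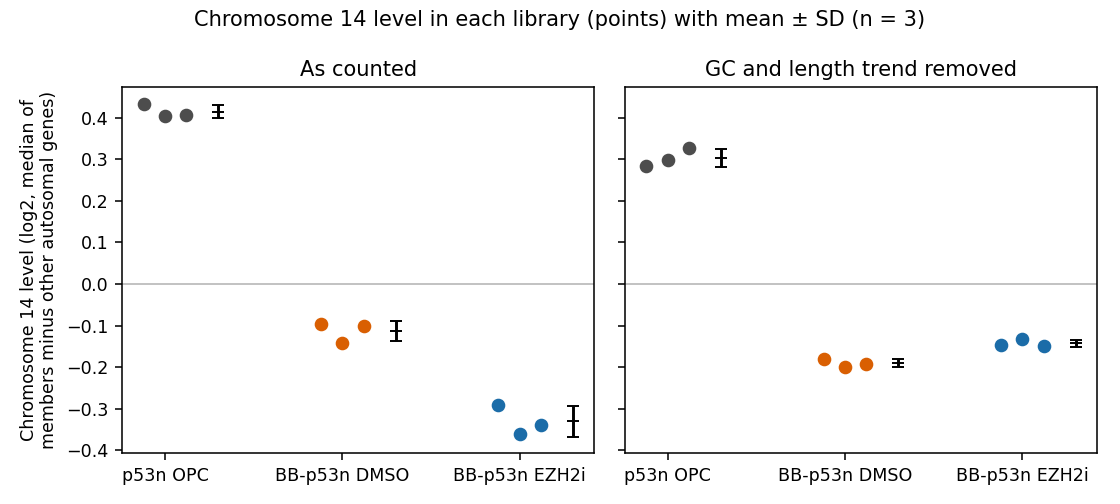
Level of chromosome 14 in each library (vertical axis, log2, median of the 462 members minus the other autosomal genes), as counted and GC-corrected; points are libraries and bars are mean ± SD of 3. The p53n OPC libraries lie between 0.405 and 0.433 as counted, and between 0.283 and 0.326 GC-corrected. All PDGF-BB libraries lie below 0 in both panels, and the order of BB-p53n DMSO and BB-p53n EZH2i turns between the panels.

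In BB-p53n DMSO against p53n OPC, the contrast that chose the members and is called between the lines from here on, 270 of 462 were called lower (58.4%) and 96 higher (20.8%), and 96 were not called by edgeR's quasi-likelihood test at an adjusted p of 0.05. Over all 17001 genes tested 34.0% were called lower and 35.3% higher, and over the genes with a mean of at least 1 CPM the shares were 33.1% and 40.5%. The median log2 fold change of the members was -0.42, with quartiles of -1.07 and 0.14, against 0.08 over the other autosomal genes. Of the members, 128 were called at least 2-fold lower (27.7%) and 29 at least 2-fold higher (6.3%). Among the other autosomal genes these shares were 12.5% and 13.5%. Among the other autosomes the chromosome medians ran from -0.11 on chromosome 16 to 0.42 on chromosome 11. GC correction left the chromosome 14 median at -0.41.

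The lowered level was seen in weak and abundant genes alike. Relative to other autosomal genes of the same level, the members' median was -0.46 at a mean of 1 to 10 CPM (134 members), -0.52 at 10 to 100 CPM (264 members) and -0.65 at 100 CPM or more (64 members). Split by GC content at 46.6% and 52.9%, bounds that part the other autosomal genes into 3 equal groups, the same difference was -0.45, -0.45 and -0.53. By promoter, the members' own median log2 fold change was -0.46 for 189 members with at least 15 CG pairs. It was -0.77 for 41 members with 5 to 14, and -1.05 for 19 members with fewer than 5. After GC correction the values were -0.39, -0.87 and -0.88. Other autosomal genes were not split by promoter, so these medians are not differences from them.

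**Figure D2:**
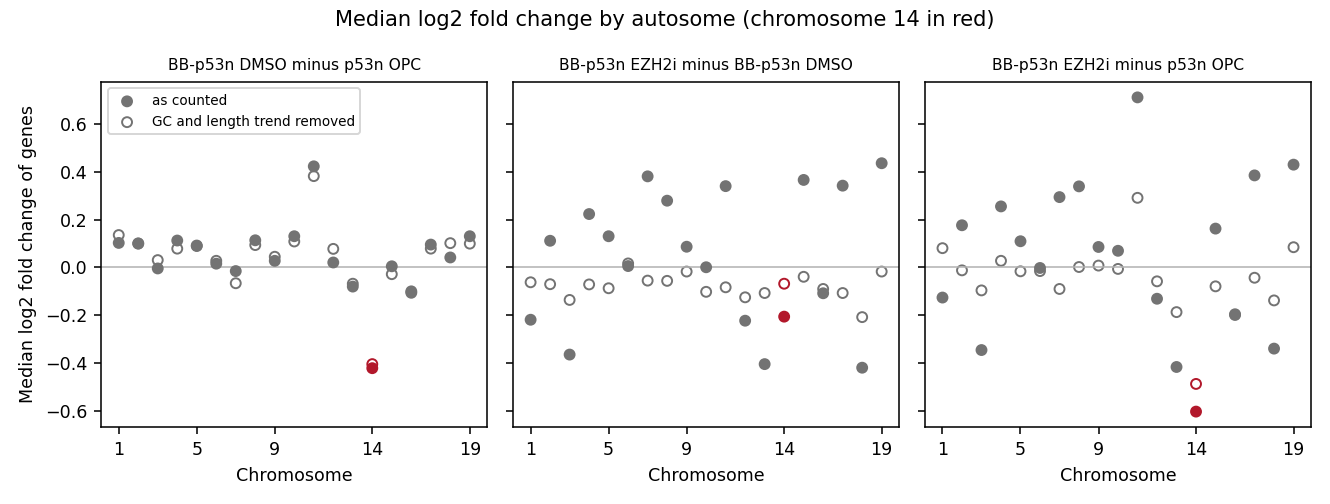
Median log2 fold change of the genes of each autosome (vertical axis) in 3 comparisons, as counted (filled) and GC-corrected (open), with chromosome 14 in red. In BB-p53n DMSO minus p53n OPC chromosome 14 lies at -0.42, below the lowest other autosome at -0.11, while in BB-p53n EZH2i minus BB-p53n DMSO it lies at -0.21, within the range of the others.

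Along the chromosome the lowering was uneven. The members fell into 13 windows of 10 Mb on GRCm39, numbered from the lowest position, with 8 to 99 members each. The median log2 fold change of BB-p53n DMSO against p53n OPC was -0.22, -0.08 and -0.12 in windows 1 to 3, and -0.61, -0.54, -0.48, -0.27 and -0.57 in windows 4 to 8. It was -0.91 in window 9 (8 members), -0.17 in window 10 (10 members), -0.81 in window 11, -1.33 in window 12 and -0.32 in window 13. All 13 medians were below 0, and 12 were so after GC correction; the median of window 2 was above 0 without p53n OPC replicate 1 (0.039), p53n OPC replicate 3 (0.040) or BB-p53n DMSO replicate 2 (0.007). Of 238 windows with at least 10 genes on the other autosomes, the median was 0.06 and the 5th percentile -0.30. Of the 12 chromosome 14 windows with at least 10 members, 7 lay below that percentile. Since this contrast chose the chromosome, that count is a description and no test.

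Window levels by library showed the same unevenness. In window 12, which begins with Slitrk6 and holds 16 members, the level was 0.98, 1.00 and 1.14 in p53n OPC, -0.10, -0.15 and -0.14 in BB-p53n DMSO, and -0.72, -0.90 and -0.75 in BB-p53n EZH2i. In window 10 the p53n OPC libraries were at 0.25, 0.39 and 0.31 and the BB-p53n DMSO libraries at 0.29, 0.24 and 0.31. Window 10 was the only window in which those groups overlapped, while BB-p53n EZH2i lay below p53n OPC in all 13. Library levels were not taken for windows of other autosomes, so these counts have no background. The levels are relative to other autosomal genes and not GC-corrected. In window 2 the median log2 fold change of BB-p53n EZH2i against p53n OPC was itself 0.02, and 0.16 after GC correction.

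**Figure D3:**
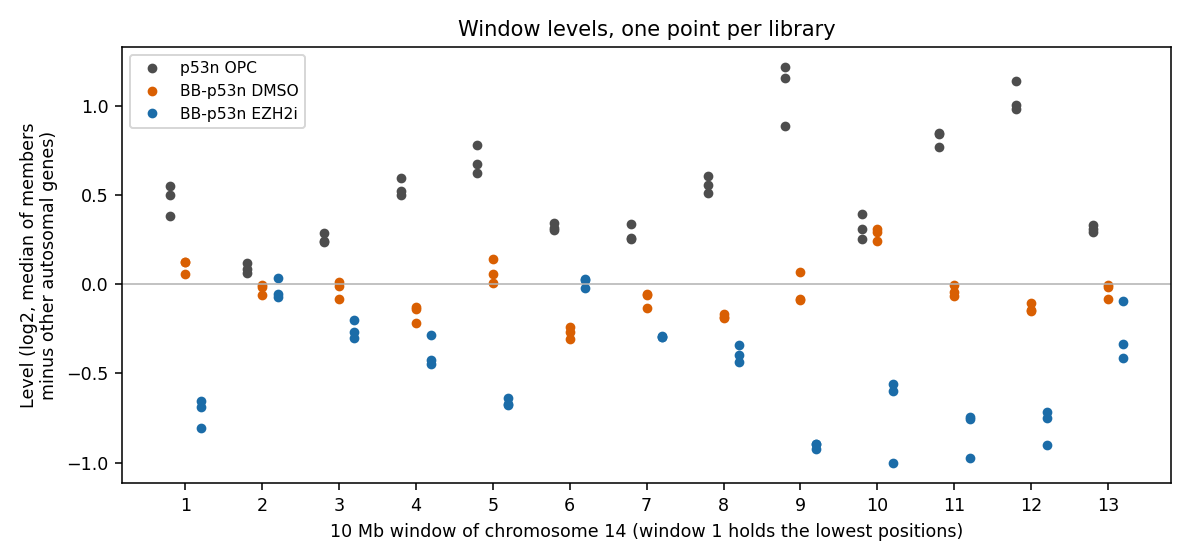
Level of each 10 Mb window of chromosome 14 (horizontal axis, windows 1 to 13) in each library (points, log2, median of the window's members minus the other autosomal genes). The p53n OPC libraries lie above the BB-p53n DMSO libraries in every window except window 10, and BB-p53n EZH2i lies highest against BB-p53n DMSO in window 6.

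**Figure D4:**
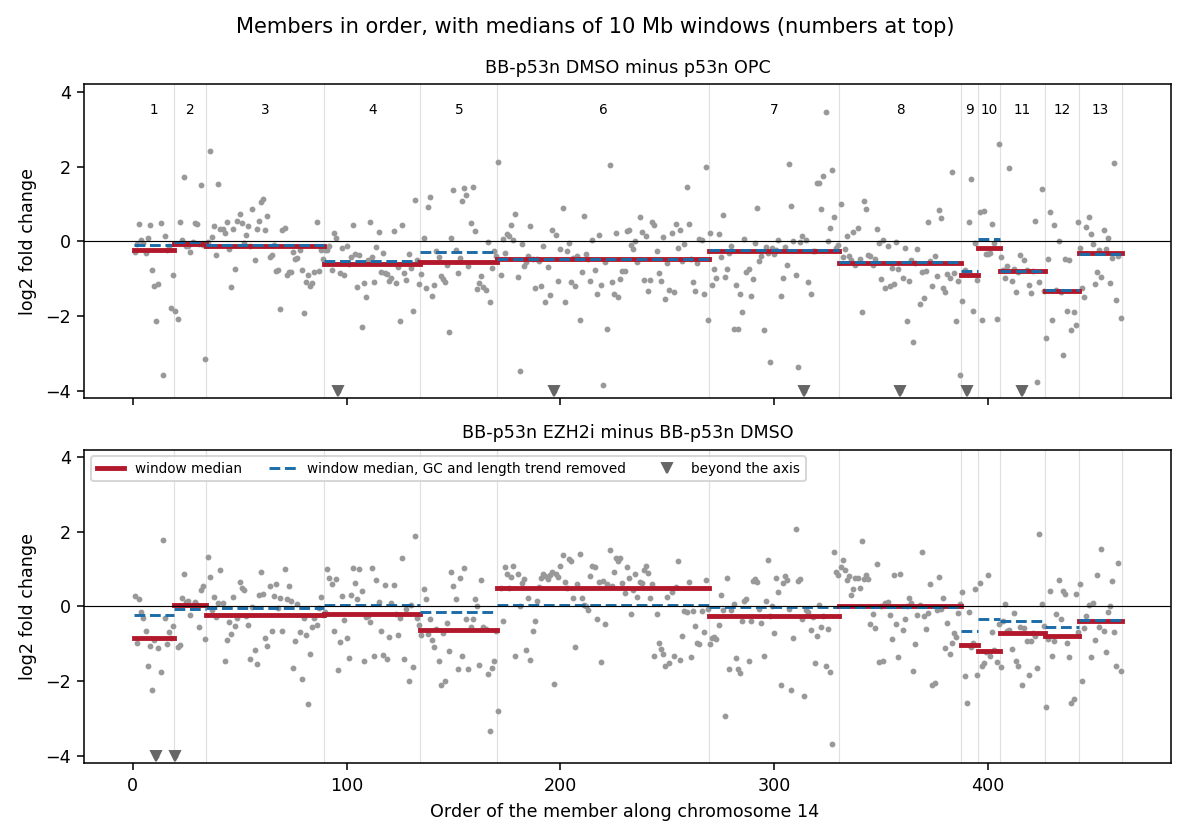
Log2 fold change of the 462 members (points) in their order along the chromosome, with window medians as counted (red) and GC-corrected (blue dashes); triangles are members beyond the axis. In the upper panel the red and blue lines lie close together except in windows 5 and 10, and in the lower panel they part, most in windows 10 and 1.

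Runs of neighbouring members with the same sign were counted as a description. The longest run of neighbours below 0 in BB-p53n DMSO against p53n OPC held 20 members, from Itm2b to Enox1 (GRCm39 chromosome 14, 73599666 to 77959200), of which 16 were called lower, with a median of -0.90. The longest run above 0 held 9 members, of which 6 were called, with a median of 1.56, and ended at Loxl2.

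The choice of chromosome 14 did not use the comparison of BB-p53n EZH2i with BB-p53n DMSO. The BB-p53n DMSO libraries are shared with the contrast that chose the members, so this comparison is not independent of the choice. It asks what EZH2 inhibition does in the PDGF-BB cells. This comparison is called with the inhibitor from here on. There 207 of 462 members fell (44.8%) and 149 rose (32.3%). Over all genes tested 35.6% fell and 37.3% rose, and over those with a mean of at least 1 CPM 38.3% and 42.3%. The members' median was -0.21, against 0.09 over the other autosomal genes. GC correction moved the median of the other autosomal genes to -0.08 and that of the members to -0.07, and the members' distance from them from -0.30 to 0.01, with 163 members falling and 137 rising. Within the 3 groups of GC content the distance was 0.01, -0.08 and -0.08 without any correction. Chromosome 14 lay within the range of the other autosomes, whose medians ran from -0.42 on chromosome 18 to 0.44 on chromosome 19.

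Window medians in this comparison were higher where GC content was higher. They were lowest in windows 10 (-1.19) and 9 (-1.03) and highest in window 6 (0.49), which holds 99 members with a median GC content of 51.4%, against 44.0% in window 10. Over the 13 windows the Pearson r of median log2 fold change with median GC content was 0.77, and over the 238 windows of the other autosomes 0.94; the windows share libraries, depth and the same trend, and no test was made. After GC correction window 6 was at 0.04 and window 10 at -0.35. Between the lines the same r was -0.17 over the 13 windows. The longest run of neighbours that all rose held 17 members starting at Loxl2 (69846517 to 70820128), all 17 called, with a median GC content of 53.4% and a median rise of 0.82. After GC correction that median was 0.21, with 9 of the 17 called higher.

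Of 22 members for growth factor and receptor signalling, 14 were lower and 5 higher between the lines, with a median of -0.84, against 34.0% and 35.3% of all genes tested and a median of 0.08 over the other autosomal genes; with the inhibitor 11 fell and 5 rose (12 and 3 after GC correction). The same shares and medians (35.6% fell, 37.3% rose and 0.09 with the inhibitor) are the background for each list of members. Over all 462 members, chosen as lowered, 58.4% were lower and 20.8% higher between the lines, with a median of -0.42. A share of lower members near 58.4% in a list is therefore that of the chromosome itself. With the inhibitor 44.8% of all members fell and 32.3% rose. Levels of single members are CPM scaled by TMM, the trimmed mean of M-values, positions are on GRCm39, and fold changes are log2. Ednrb, the endothelin receptor type B, on the minus strand at 104052061 to 104081838, was at 967, 1013 and 1007 CPM in p53n OPC, at 58.3, 57.8 and 59.7 CPM in BB-p53n DMSO, and at 14.3, 13.3 and 13.1 CPM in BB-p53n EZH2i. The groups were far apart, with a log2 fold change of -4.09 (SE 0.069) between BB-p53n DMSO and p53n OPC, and Ednrb fell again with the inhibitor by 2.11 (SE 0.072, adjusted p = 7.68e-15), or by 1.58 after GC correction. Gng2, a gamma subunit of heterotrimeric G proteins (minus strand, 19922627 to 20027695), was at 114.9, 108.1 and 116.0 CPM, then at 13.1, 12.4 and 12.4 CPM, and then at 6.86, 6.66 and 7.23 CPM. Its log2 fold change was -3.16 between the lines, and it fell by 0.87 with the inhibitor (SE 0.092, adjusted p = 3.77e-08), or by 0.31 after GC correction. Fzd3, a Wnt receptor (minus strand, 65429898 to 65499912), was at 322, 391 and 400 CPM in p53n OPC, 136, 128 and 138 CPM in BB-p53n DMSO and 34.7, 24.4 and 34.0 CPM in BB-p53n EZH2i. The groups did not overlap, at -1.47 between the lines, and Fzd3 fell by 2.11 with the inhibitor (SE 0.121, adjusted p = 2.77e-09), or by 0.60 after GC correction.

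Among the signalling genes that stood higher was Stc1, which encodes the glycoprotein hormone stanniocalcin (plus strand, 69266687 to 69279253). It was at 1.84, 1.29 and 1.68 CPM in p53n OPC, at 17.7, 19.1 and 16.6 CPM in BB-p53n DMSO and at 5.43, 6.07 and 6.18 CPM in BB-p53n EZH2i. Stc1 was 3.46 higher between the lines on the log2 scale, and with the inhibitor it fell by 1.60 (SE 0.130, adjusted p = 9.68e-10), or by 0.91 after GC correction. Farp1, a guanine nucleotide exchange factor of neurites, was 0.66 higher between the lines and was not called with the inhibitor, at 0.03 (adjusted p = 0.638), but at -0.59 after GC correction (adjusted p = 1.66e-09). Farp1 overlaps another gene region on the same strand.

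Glial genes on the chromosome were mostly lower in the PDGF-BB line: 9 of 12 were called lower and 2 higher, with a median log2 fold change of -1.16. With the inhibitor 3 fell and 6 rose, and after GC correction 5 and 5. Ndrg2, known for its abundance in astrocytes (minus strand, 52142728 to 52151615), was at 606, 599 and 612 CPM in p53n OPC, at 52.46, 53.02 and 58.54 CPM in BB-p53n DMSO and at 50.9, 62.3 and 52.6 CPM in BB-p53n EZH2i. It was -3.47 between the lines, and the 2 PDGF-BB groups overlapped, at 0.01 with the inhibitor (adjusted p = 0.884), but at -0.62 after GC correction (adjusted p = 3.17e-08). Clu, the secreted chaperone clusterin (plus strand, 66205932 to 66218996), was at 25.6, 34.0 and 27.9 CPM, then at 2.30, 3.23 and 2.96 CPM, and then at 5.23, 3.25 and 4.90 CPM. Clu was -3.36 between the lines and rose by 0.67 with the inhibitor (SE 0.189, adjusted p = 0.00347), a call that was lost after GC correction at -0.12 (adjusted p = 0.632). Slc22a17, a receptor for the iron carrier lipocalin 2, was -1.07 between the lines and rose by 0.83 with the inhibitor (adjusted p = 1.84e-09), which was also lost after GC correction at 0.04 (adjusted p = 0.58). The summed levels of the astrocyte markers (858 to 1035, 412 to 445 and 306 to 318 CPM) and of the markers of differentiated oligodendrocytes (687 to 749, 158 to 171 and 271 to 283 CPM) were lower in the PDGF-BB libraries too, and their part in these glial genes was not tested.

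Itm2b, a membrane protein that limits amyloid formation (minus strand, 73599666 to 73622729), was at 263, 258 and 267 CPM in p53n OPC, 107, 113 and 113 CPM in BB-p53n DMSO and 115, 111 and 126 CPM in BB-p53n EZH2i. It was -1.25 between the lines, and the 2 PDGF-BB groups overlapped, at 0.09 with the inhibitor (adjusted p = 0.245), but at 0.32 after GC correction (adjusted p = 8.88e-05). The same shape, lower between the lines and not called with the inhibitor before GC correction, was seen for Tsc22d1, a transcriptional regulator responsive to TGF-beta (plus strand, 76652401 to 76745205), at 369, 341 and 368 CPM, then 106, 115 and 119 CPM, and then 115, 119 and 116 CPM. Its log2 fold change was -1.67 between the lines and 0.04 with the inhibitor (adjusted p = 0.58), but -0.45 after GC correction (adjusted p = 7.16e-06).

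Metabolic genes split. Glud1, the mitochondrial glutamate dehydrogenase (plus strand, 34032684 to 34067222), was at 419, 444 and 440 CPM in p53n OPC, at 93.8, 100.5 and 104.8 CPM in BB-p53n DMSO and at 76.5, 87.9 and 78.0 CPM in BB-p53n EZH2i. It was -2.12 between the lines and fell by 0.31 with the inhibitor (SE 0.070, adjusted p = 0.000624). Tkt, the transketolase of the pentose phosphate pathway (plus strand, 30270316 to 30296677), was at 353, 327 and 306 CPM in p53n OPC, at 277, 286 and 272 CPM in BB-p53n DMSO and at 487, 596 and 596 CPM in BB-p53n EZH2i. Tkt was -0.24 between the lines and rose by 1.01 with the inhibitor (SE 0.078, adjusted p = 5.26e-10), or by 0.59 after GC correction. Fdft1, the squalene synthase of sterol synthesis, was at -0.05 between the lines with overlapping groups, and rose by 0.74 with the inhibitor (adjusted p = 9.43e-09), or by 0.28 after GC correction. Fdft1 overlaps Ctsb on the opposite strand, and the counting set no strand. In the list of mitochondria and energy metabolism 13 of 22 members were lower and 6 higher between the lines, and 5 fell and 12 rose with the inhibitor (3 and 13 after GC correction).

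Of 21 members for cell division and DNA replication, 13 were called higher and 5 lower between the lines, where 35.3% and 34.0% of all genes tested were, and their median was 0.43, against 0.08 over the other autosomal genes. Pbk, a mitotic kinase (plus strand, 66043286 to 66055271), was at 21.6, 18.9 and 20.5 CPM in p53n OPC, at 84.5, 86.7 and 87.2 CPM in BB-p53n DMSO and at 94.5, 78.7 and 74.2 CPM in BB-p53n EZH2i. Pbk was 2.08 higher between the lines, and the PDGF-BB groups overlapped, at -0.06 with the inhibitor (adjusted p = 0.517), but at 0.33 after GC correction (adjusted p = 0.000269). Its neighbour Esco2, an acetyltransferase that establishes sister chromatid cohesion (minus strand, 66056487 to 66071443), was at 9.30, 11.53 and 12.03 CPM, then at 24.3, 18.7 and 20.6 CPM, and then at 5.99, 3.20 and 4.09 CPM. Esco2 was 0.96 higher between the lines and fell by 2.23 with the inhibitor (SE 0.177, adjusted p = 4.41e-09), or by 0.71 after GC correction. Its transcript has a GC content of 36.7%, and its fold change of BB-p53n EZH2i against p53n OPC turned from -1.28 to 0.78 with the correction.

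Supt16, a subunit of the FACT histone chaperone (minus strand, 52397871 to 52434873), was at 121, 124 and 144 CPM in p53n OPC, 184, 165 and 170 CPM in BB-p53n DMSO and 68.2, 64.4 and 59.4 CPM in BB-p53n EZH2i. It was 0.42 higher between the lines and fell by 1.44 with the inhibitor (SE 0.079, adjusted p = 4.60e-12), to below the p53n OPC libraries. Wapl, which releases cohesin from chromatin, fell by 1.98 with the inhibitor (adjusted p = 1.39e-08), or by 0.98 after GC correction. Haus4, a subunit of the augmin complex of the spindle (minus strand, 54779242 to 54792073), went the other way, from 4.93, 4.29 and 4.00 CPM to 8.30, 8.38 and 7.99 CPM and then to 21.3, 23.0 and 20.5 CPM. It was 0.90 higher between the lines and rose by 1.39 with the inhibitor (SE 0.112, adjusted p = 8.55e-10), or by 0.54 after GC correction. Of the 21 members, 12 fell and 4 rose with the inhibitor (11 and 5 after GC correction), with a median of -0.39.

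Kcnk5, a two-pore potassium channel (minus strand, 20190125 to 20231877) with 26 CG pairs in its promoter window, was at 1.77, 1.79 and 2.15 CPM in p53n OPC, 9.79, 9.44 and 11.1 CPM in BB-p53n DMSO and 15.2, 22.0 and 15.2 CPM in BB-p53n EZH2i. It was 2.41 higher between the lines and rose by 0.79 with the inhibitor (SE 0.140, adjusted p = 4.07e-05), a call that was lost after GC correction. Dhrs2, a short-chain dehydrogenase (plus strand, 55459464 to 55478892), was at 0.486, 0.708 and 0.547 CPM, then at 2.06, 2.58 and 2.47 CPM, and then at 7.14, 6.02 and 6.95 CPM. It was 2.03 higher between the lines and rose by 1.502 with the inhibitor (SE 0.182, adjusted p = 2.63e-07), or by 0.68 after GC correction.

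**Figure D5:**
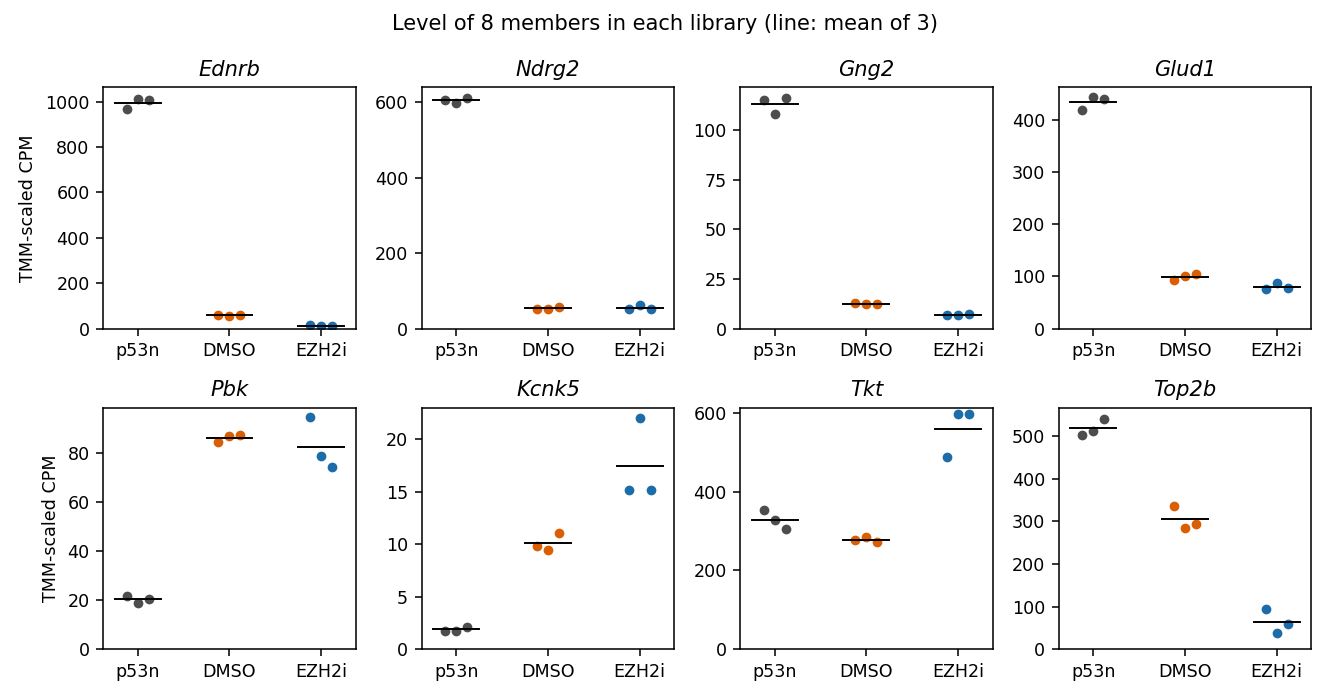
Level in TMM-scaled CPM (vertical axes from 0) of 8 members in each library (points) with the mean of 3 as a line, in p53n OPC, BB-p53n DMSO and BB-p53n EZH2i. Ednrb, Ndrg2, Gng2 and Glud1 are highest in p53n OPC, Pbk and Kcnk5 lowest there, Tkt is highest and Top2b lowest in BB-p53n EZH2i.

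A few members fell steeply with the inhibitor. Top2b, a DNA topoisomerase of postmitotic and differentiating cells (minus strand, 6034301 to 6104584), was at 503, 511 and 541 CPM in p53n OPC, 337, 284 and 294 CPM in BB-p53n DMSO and 94.9, 38.8 and 59.8 CPM in BB-p53n EZH2i. The groups did not overlap, and Top2b fell by 2.23 with the inhibitor (SE 0.297, adjusted p = 0.000357), or by 0.87 after GC correction. Slitrk6, a neuronal adhesion receptor (minus strand, 110986012 to 110992581), was at 17.2, 19.1 and 20.6 CPM, then at 3.73, 2.84 and 2.93 CPM, and then at 0.872, 0.213 and 0.285 CPM. It was -2.58 between the lines and fell by a further 2.69 with the inhibitor (SE 0.301, adjusted p = 1.20e-07), or by 1.66 after GC correction. The levels of 0.213 and 0.285 CPM lie near the floor of 3 counts (0.087 to 0.154 CPM), so the size of that fall is uncertain. Uggt2, a glucosyltransferase of glycoprotein folding (minus strand, 119222451 to 119336842), fell by 2.49 with the inhibitor (adjusted p = 6.93e-12), or by 1.13 after GC correction.

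Several of the largest rises with the inhibitor were in members of low level. Cdhr1, a photoreceptor cadherin, was at 1.60, 0.874 and 0.757 CPM in p53n OPC, 2.39, 2.31 and 2.38 CPM in BB-p53n DMSO and 8.25, 9.85 and 8.23 CPM in BB-p53n EZH2i. It rose by 1.89 (SE 0.194, adjusted p = 2.56e-08), or by 1.56 after GC correction. Loxl2, a lysyl oxidase that crosslinks collagen, rose by 1.47 from 2.66, 2.72 and 3.08 CPM to 8.523, 8.999 and 5.946 CPM (SE 0.183, adjusted p = 3.96e-07), or by 1.14 after GC correction. Lgi3, a secreted leucine-rich repeat protein, was lower between the lines and rose by 1.76 with the inhibitor (adjusted p = 2.81e-08), or by 0.93 after GC correction, from 2.30, 1.69 and 2.31 CPM to 6.70, 5.86 and 8.75 CPM, which overlapped the p53n OPC libraries at 7.50 to 7.95 CPM. Clybl, a mitochondrial citramalyl-CoA lyase, rose by 1.53 (adjusted p = 4.09e-06) and by 1.46 after GC correction, and Scara3, a scavenger receptor, rose by 2.07 (adjusted p = 3.68e-07), or by 1.29 after GC correction.

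Of the 18 transcription factors of development listed, 9 were members, that is, on chromosome 14 at a mean of at least 1 CPM. Factors below that level were dropped before counting. Of the 9 members, 6 fell and 1 rose with the inhibitor, before and after GC correction. Klf12, a Krüppel-like repressor (minus strand, 100108068 to 100522115), was at 89.6, 84.6 and 85.2 CPM in p53n OPC, 66.1, 63.6 and 64.4 CPM in BB-p53n DMSO and 24.5, 18.5 and 20.3 CPM in BB-p53n EZH2i, and fell by 1.61 with the inhibitor (SE 0.088, adjusted p = 4.04e-12). Sox21, an SRY-box factor of neural progenitors (minus strand, 118470644 to 118474442), was at 45.0, 53.5 and 51.0 CPM, then 20.1, 18.9 and 19.6 CPM, and then 16.3, 11.8 and 17.9 CPM. It fell by 0.34 with the inhibitor (SE 0.120, adjusted p = 0.0147), and by 1.20 after GC correction, its transcript having a GC content of 58.3%. The 1 that rose was Sall2, a zinc finger factor (minus strand, 52548629 to 52566219), at 304, 299 and 255 CPM, then 120, 133 and 123 CPM, and then 189, 230 and 216 CPM. Sall2 was -1.19 between the lines and rose by 0.76 with the inhibitor (SE 0.081, adjusted p = 5.34e-08), or by 0.28 after GC correction, to below the p53n OPC libraries.

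Regulators of chromatin and transcription were lower between the lines in 17 of 25 members and higher in 3, with a median of -0.48. With the inhibitor 14 fell and 5 rose, and 9 and 8 after GC correction. Chd8, a chromatin remodeller, fell by 0.66 with the inhibitor (adjusted p = 3.77e-08), a call lost after GC correction at -0.10 (adjusted p = 0.155). Zmiz1, a transcriptional coactivator, was 0.30 higher between the lines and fell by 0.65 with the inhibitor (adjusted p = 4.67e-08), or by 0.84 after GC correction. Of 15 RNA processing members 10 were called lower and 0 higher between the lines by edgeR's quasi-likelihood test (0 higher also at an unadjusted p of 0.05 and by DESeq2). After GC correction 10 were lower and 1 higher. With the inhibitor 6 fell and 5 rose (6 and 6 after GC correction), shares near those over all genes tested, 35.6% and 37.3%. Hnrnpc, a nuclear RNA-binding protein, rose by 0.23 with the inhibitor (adjusted p = 0.00382), or by 0.90 after GC correction, and Elp3, the acetyltransferase subunit of Elongator, rose by 0.71 (adjusted p = 1.47e-08), or by 0.33.

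Of 18 proteasome, ubiquitin and protein folding members, 11 were lower and 1 higher between the lines, and 6 fell and 8 rose with the inhibitor (6 and 10 after GC correction). Psme1, a subunit of the 11S proteasome activator (plus strand, 55815580 to 55818986), was at 39.5, 34.8 and 33.9 CPM in p53n OPC, 15.8, 19.1 and 19.1 CPM in BB-p53n DMSO and 36.3, 53.7 and 42.7 CPM in BB-p53n EZH2i. It was -1.01 between the lines and rose by 1.29 with the inhibitor (SE 0.125, adjusted p = 6.20e-08), or by 0.38 after GC correction. Psmd6, a subunit of the 19S lid, fell by 0.32 with the inhibitor (adjusted p = 0.000247). Among 4 interferon and cell death members, 3 were lower between the lines and 2 rose with the inhibitor. After GC correction 4 were lower between the lines, and 1 fell and 1 rose with the inhibitor. Irf9, which overlaps Rnf31 on the same strand, was -0.80 between the lines. It rose by 0.36 with the inhibitor (adjusted p = 0.0483), a call lost after GC correction (adjusted p = 0.369). Of 20 members for adhesion, guidance and matrix, 13 were lower and 4 higher between the lines, and 10 fell and 5 rose with the inhibitor (13 and 3 after GC correction). Dpysl2, a cytosolic mediator of axon guidance, was at 0.05 between the lines with overlapping groups. Itih3, which encodes a heavy chain that binds hyaluronan, was at 7.88, 9.28 and 10.4 CPM in p53n OPC, at 0.0597, 0.355 and 0.216 CPM in BB-p53n DMSO, and at 0 in 2 of 3 BB-p53n EZH2i libraries, with 0.190 CPM in the third. The last 2 groups lie near the floor of 3 counts, so no fold is given between them.

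Against p53n OPC, BB-p53n EZH2i had 274 members called lower (59.3%) and 122 higher (26.4%), with the p53n OPC libraries shared with the first comparison. Over all genes tested 41.7% were called lower and 40.3% higher, and over those with a mean of at least 1 CPM 40.5% and 45.4%. The members' median was -0.60, against 0.12 over the other autosomal genes, and -0.49 against 0.00 after GC correction. Other autosomes ran from -0.42 on chromosome 13 to 0.71 on chromosome 11. The window medians were lowest in windows 9 (-1.93, 8 members), 12 (-1.77) and 11 (-1.52), and window 2 was at 0.02. After GC correction they were -1.575, -1.932, -1.277 and 0.163. Over the 238 windows of the other autosomes the 5th percentile was -1.24 and the lowest median -1.835. After GC correction these were -0.434 and -0.998. Of the 12 chromosome 14 windows with at least 10 members, 2 lay below the 5th percentile before GC correction. The longest run of neighbours below 0 held 20 members from Fndc3a to Tsc22d1 (72775386 to 76745205), of which 19 were called lower. Gm48239 and Adra1a, named after their values were seen, had 0 counts in all 3 BB-p53n EZH2i libraries.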

How the data were processed

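RNA of 9 libraries in 3 groups was analysed. The authors deposited 1 table of raw counts per gene, made, per the file headers, with featureCounts 1.6.3 over exons of Ensembl release 108 (GRCm39), with both ends mapped, a mapping quality of at least 20 and no strand option, so overlapping genes on opposite strands are mixed. The submitters' processing notes also list Trimmomatic and Subread, without versions; how reads were aligned is not given in the sources used here. Symbols, biotypes and GC content came from GENCODE vM21 by gene identifier (459 of 462 members), promoters from RefSeq on GRCm38.p6. No coordinate was converted between builds.

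Genes were filtered with filterByExpr and scaled with TMM in edgeR 4.0.16 (R 4.3.3, limma 3.58.1), which left 17001 genes, and 1 robust quasi-likelihood model with group as its term was fitted to all 9 libraries (common biological coefficient of variation 0.081). Adjusted p-values are Benjamini-Hochberg values over all genes tested, threshold 0.05. The GC-corrected values come from the same model with offsets that remove each library's spline trend on GC content and exon length. Scripts were tested on simulated counts. Alternatives were RLE scaling, TMM without chromosomes 11 and 14, no filter, DESeq2 1.42.0, 2 groups only, a replicate block, each library left out, a stricter level, protein coding genes, other windows, and count shares; the GC-corrected library level was added after seeing the data.

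Genes were named by rule: the most abundant member per kb in each window, the 6 largest rises and falls among called members per comparison, up to 3 members per list by level, and the ends of the longest runs; not all are printed, some because they are not reported here, and predicted names outside these were given only for counts or the limit. The members, lists and rules were chosen with earlier results of these data known. Libraries of a group differed by more than sampling noise (mean chi-square per gene 7.45 to 22), so none was treated as a repeat.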

Additional observations from a re-analysis of the deposited data

How the results depend on the processing

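Counts of called members stayed within 1.5 times under every alternative run, and with each library left out they ran from 237 to 272 lower and 88 to 105 higher between the lines, 198 to 217 and 136 to 150 with the inhibitor, and 262 to 270 and 119 to 131 for EZH2i against p53n OPC. The median between the lines was -0.45 with RLE and with DESeq2, -0.34 with TMM outside chromosomes 11 and 14, -0.35 without a filter, -0.39 at 10 CPM or more and -0.43 to -0.33 with a library left out; the distance from the other autosomal genes was then -0.52 to -0.50. With the inhibitor it was -0.27 (TMM outside those chromosomes), -0.31 (no filter), -0.28 (2 groups) and -0.28 to -0.18 with a library left out (distance -0.32 to -0.28). For EZH2i against p53n OPC it was -0.49 at 10 CPM or more, and -0.60 to -0.58 with a library left out (distance -0.76 to -0.72). Shares of windows below 0 with a library left out were 92.3% to 100% between the lines and against p53n OPC, and 76.9% to 92.3% with the inhibitor. GC correction gave -0.068 with the inhibitor (distance 0.008, reversed) and -0.49 against p53n OPC (distance -0.489). The library level differences were -0.61, -0.079 and -0.69 by count share and -0.49, 0.048 (reversed) and -0.45 GC-corrected. Window 2 between the lines reversed to 0.009 (TMM outside those chromosomes) and to 0.007 to 0.04 without p53n OPC replicate 1 or 3 or BB-p53n DMSO replicate 2, window 10 to 0.074 and window 4 with the inhibitor to 0.029 under GC correction.

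Whether the replicate numbers pair the libraries is not settled by their correlations, which ran from -0.229 to 0.395 for the same number. Between BB-p53n DMSO and BB-p53n EZH2i the same-number values were 0.395, 0.306 and -0.058. There the values for numbers 1 and 2 crossed were -0.379 and -0.351. A replicate block gave 271 lower and 98 higher members between the lines and 209 and 147 with the inhibitor; block with GC correction gave -0.068 (distance 0.011, reversed) with the inhibitor, -0.49 (distance -0.491) against p53n OPC, and window 10 at 0.074 and window 4 at 0.019. Genes that reversed under GC correction, without and with the block: Clu -0.12 and -0.11, Kcnk5 -0.00 and -0.004 with the inhibitor; Esco2 0.78 and 0.78, Hnrnpc 0.61 and 0.61, Psme1 -0.67 and -0.68 against p53n OPC. The cause was not tested. Depth limits members near 1 CPM.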
